A study of Mus musculus with 3 samples.

Results

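RNA-seq values of 10 genes of the blood vessel and early blood lineage were followed in mouse embryonic stem (ES) cells with and without Pcgf1, a subunit of the Polycomb complex PRC1.1. The genes were chosen by name: the vascular growth factor receptors Kdr (the gene symbol of Flk1), Flt1 and Flt4, the receptors Tek and Tie1, the adhesion molecules Pecam1 and Cdh5, and the transcription factors Tal1, Lmo2 and Etv2. All 10 were found among the 25350 genes with a name of their own, and each had a value above 0 in every library. The 3 libraries were 1 of WT C57BL/6 ES cells, 1 of Pcgf1-/- cells and 1 of Pcgf1-/- cells rescued with FLAG-tagged Pcgf1 from a lentivirus (Pcgf1-/-+Pcgf1). The Pcgf1-/- cells came from a colony in which CRISPR/Cas9 cut exons 2 and 3 of Pcgf1, and the rescued line keeps that deletion. All cells grew with leukemia inhibitory factor on a layer of mitomycin-C treated mouse embryonic fibroblasts. With 1 library per genotype, no difference below has a replicate check in the RNA-seq and no p-value could be given. Differences between libraries, between clones and between genotypes cannot be told apart. For Flk1 alone among the 10 genes, the paper separately reports RT-qPCR with independent biological repeats. There it found significantly lower Flk1 in Pcgf1-/- than in WT ES cells. In embryoid bodies the paper reports that FLAG-tagged Pcgf1 brought differentiation markers back to near control levels. By chromatin immunoprecipitation with qPCR it reports FLAG-tagged Pcgf1 at the Flk1 promoter. In Pcgf1-/- it found less BcoR, Ring1B and Suz12 bound at its targets, Flk1 among them.

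Flk1 is a receptor tyrosine kinase for vascular endothelial growth factor (VEGF) and marks the mesoderm from which vessels and blood arise. Etv2, Tal1 and Lmo2 are transcription factors that start this programme, and Pecam1, Cdh5, Tek and Tie1 are proteins of the endothelial surface. Undifferentiated ES cells are not endothelial, but several of these genes are transcribed in them at a low level, and Pecam1 is a known surface protein of ES cells.

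The oligonucleotides with which the study followed Flk1 are shown because they place its measurements on the gene. The pair used for RT-PCR matched exon 30, the last exon of the transcript of 5924 bases that encodes the receptor of 1345 residues. It bounds chr5:75933431-75933705 of mm10, 275 bases in the part of the last exon that lies after the coding sequence, somewhat more than the product length listed with the pair.
RT-PCR forward: gcttgctccttcctcatctc
RT-PCR reverse: ccatcaggaagccacaaagc
The pair used for chromatin immunoprecipitation matched exon 1 and bounds chr5:75978235-75978427, 193 bases that lie before the first codon.
ChIP-PCR forward: tgtgtttccttagatcgcgc
ChIP-PCR reverse: caaagaagtcacagaggcgg

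PRC1.1 holds Kdm2b, a protein that binds unmethylated CG dinucleotides, so the CG content of the promoters was counted in the 250 bases before each start in RefSeq (GRCm38.p6). The sequences of Kdr and Tek are shown, 5′ to 3′ on the strand of the gene and with each CG in capitals, because these genes differed most between WT and Pcgf1-/- among the members of at least 1 FPKM and have very different CG content. The window of Kdr is chr5:75978456-75978705, minus strand, and that of Tek is chr4:94739039-94739288, plus strand.
Kdr: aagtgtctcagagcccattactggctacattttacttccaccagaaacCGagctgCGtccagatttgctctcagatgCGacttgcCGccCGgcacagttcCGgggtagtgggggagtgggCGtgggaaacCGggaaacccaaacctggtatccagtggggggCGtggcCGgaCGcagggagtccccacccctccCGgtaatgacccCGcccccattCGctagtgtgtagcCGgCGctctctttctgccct
Tek: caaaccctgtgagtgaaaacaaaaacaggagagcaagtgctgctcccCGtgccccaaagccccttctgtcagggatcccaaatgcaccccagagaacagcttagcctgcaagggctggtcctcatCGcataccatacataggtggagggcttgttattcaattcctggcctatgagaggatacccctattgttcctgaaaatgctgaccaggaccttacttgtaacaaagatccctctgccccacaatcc
The Kdr window held 16 CG, and 25.4% of the 32851 promoters of the table held at least as many. The Tek window held 2, a number reached or passed by 81.2% of promoters. RefSeq promoters were found for 7 of the 10 genes (8 promoters), and Pecam1, Cdh5 and Lmo2 were not among them. The richest was that of Flt1 with 23 CG, while Flt4 had 16, Tie1 6, Etv2 3 and the starts of Tal1 6 and 16. The median over all promoters was 6, and 92.1% held at least 1 CG. A relation between CG count and change was not tested.

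Expression is given as FPKM, a count of fragments scaled to transcript length and library size, a unit that allows levels of different genes to be compared. Ratios were taken after 0.1 FPKM had been added to each value, and a gene was called changed past 2-fold. On this scale the change of a gene near 0.1 FPKM is understated. In WT the order of levels was Pecam1, Tek, Lmo2, Kdr, Etv2, Flt4, Tal1, Flt1, Tie1 and Cdh5. Pecam1 ranked 3777 and Cdh5 12852 among the 25350 genes. Neighbours in this order cannot be separated, because no spread between libraries is known. Of the 10 genes, 6 reached 1 FPKM in at least 1 library (Pecam1, Tek, Lmo2, Kdr, Etv2 and Flt4).

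**Figure D1:**
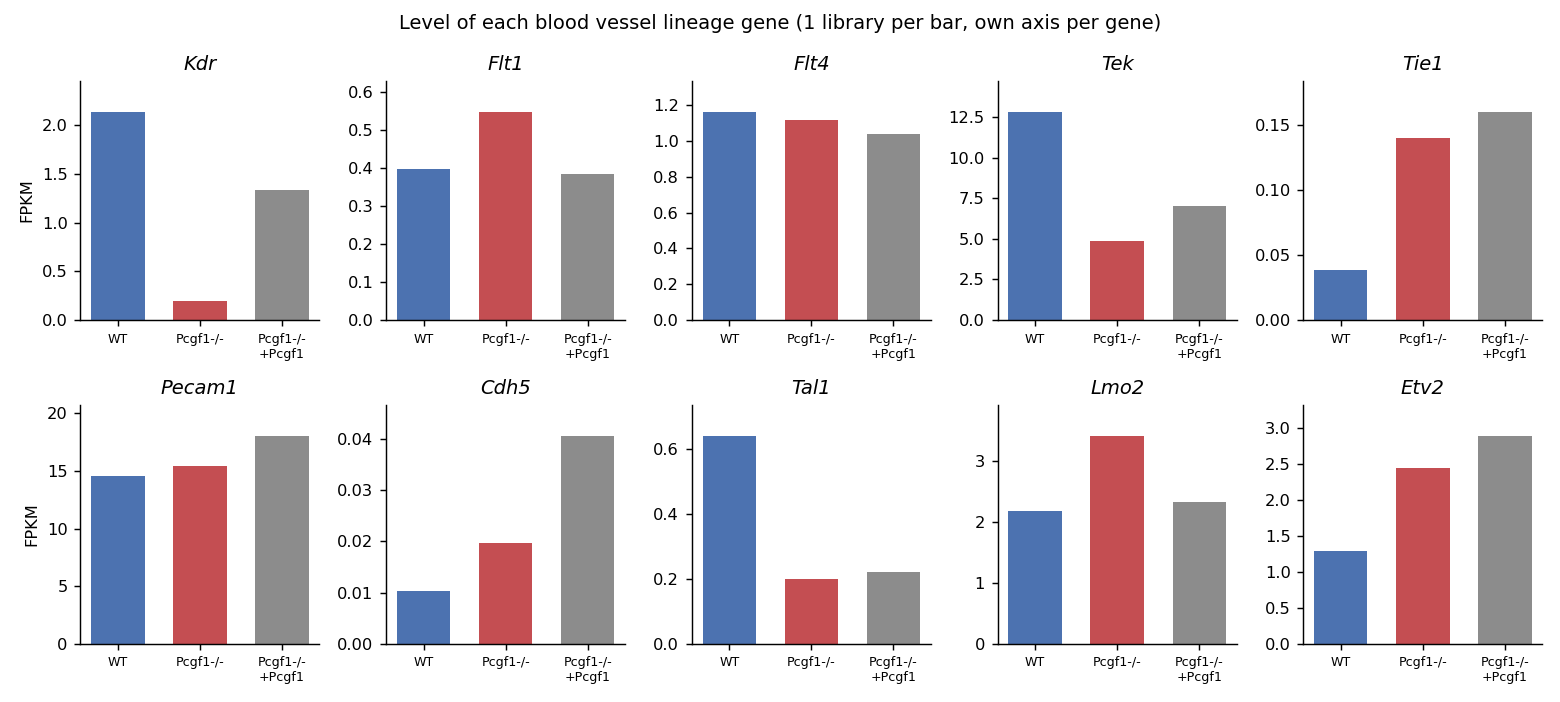
FPKM of the 10 genes (y axis, from 0, a separate scale for each gene) in the WT, Pcgf1-/- and Pcgf1-/-+Pcgf1 libraries (x axis), 1 library per bar and therefore no error bars. Kdr dips in Pcgf1-/- and stands higher again in the rescued library, and Tek does so less fully. Tal1 has the same order, which rests on a short transcript in WT, and the other 7 genes show other orders.

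In WT the FPKM of Kdr was 2.131, in Pcgf1-/- it was 0.1979 and in the rescued library 1.3309. With 0.1 FPKM added it had the largest ratio of the group in both directions. Kdr was 7.49-fold lower in Pcgf1-/- than in WT and 4.80-fold higher in the rescued library than in Pcgf1-/-. On the log2 scale these ratios were -2.91 and 2.26, and with nothing added -3.43 and 2.75. In bulk RNA, fewer cells that express a gene and less RNA per cell cannot be told apart, so a small share of Flk1-expressing cells in the WT culture would give the same values as a low level in every cell. The rescued library stayed 1.56-fold below WT, within the 2-fold limit. Values of low genes pile up at steps that can be read as 1 fragment, and on that reading the Kdr values rest on about 244, 24 and 158 fragments. The whole signal lay on the full-length transcript. First exons and last exons gave the same sum in each library, and the ends of the annotated retained-intron transcripts were listed at 0 in all 3.

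The other VEGF receptors did not follow Kdr. Flt4, the receptor of lymphatic endothelium, had 1.1617, 1.1182 and 1.04 FPKM in WT, knockout and rescued cells, and its ratios stayed within 1.11-fold. Flt1, which binds VEGF more tightly than Flk1 but signals weakly, had 0.3977, 0.5479 and 0.3843 FPKM in the same order. Its value was the highest in Pcgf1-/-, by 1.30-fold over WT, and the rescued library was back at the WT level.

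Flt1 makes 2 kinds of protein, and the files separate them by their last exon. The full-length receptor of 1333 residues ends at exon 30 (chr5:147561604-147564406). A soluble form of 688 residues, which lacks the kinase and traps VEGF, comes from transcripts that run on past exon 13 and end in the intron behind it (chr5:147635159-147639533). The full-length end had 0.1929 FPKM in WT, 0.1621 in Pcgf1-/- and 0.1887 in the rescued cells. The early end had 0.2048, 0.3858 and 0.1956 FPKM. Thus the early end carried 51.5% of Flt1 in WT, 70.4% in Pcgf1-/- and 50.9% in the rescued cells, and the higher Flt1 value of Pcgf1-/- came from this end. Behind these shares stand about 25, 50 and 25 fragments for the early end and 26, 23 and 26 for the full-length end. These numbers are over whole transcripts, and the 2 forms share the exons up to exon 13. Their division between the ends is therefore an estimate of the assembly and not a count at the last exons.

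Tek, the angiopoietin receptor Tie2, was the more strongly expressed of the pair Tek and Tie1. It had 12.789 FPKM in WT, 4.8844 in Pcgf1-/- and 7.0259 in the rescued cells, from about 1151, 466 and 656 fragments. It was 2.59-fold lower without Pcgf1, stood 1.43-fold higher with the rescue and stayed 1.81-fold below WT. Only the first of these passed 2-fold. Tie1, the related receptor without a known ligand of its own, had 0.0388, 0.1402 and 0.1601 FPKM. These correspond to about 3, 12 and 14 fragments, and the ratio of Pcgf1-/- to WT on the log2 scale was 0.79 with 0.1 FPKM added and 1.85 with nothing added.

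The files also list transcripts of Tek that skip an exon. Transcripts without exon 4 (chr4:94799127-94799279, 153 bases or 51 codons), which sets the annotated protein of 1072 residues apart from that of 1123, had 1.3657 FPKM in WT, 10.7% of the gene, and 0 in both other libraries. Transcripts without exon 7 (chr4:94811288-94811416, 129 bases or 43 codons) were not listed in WT. They had 1.1103 FPKM (22.7%) in Pcgf1-/- and 1.5277 (21.7%) in the rescued cells. Both skips keep the reading frame. The rescued library therefore sided with Pcgf1-/- and not with WT in both. Whether an event is listed at all depends on the transcripts assembled in that library, and the reads behind the junctions were not analysed here.

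**Figure D2:**
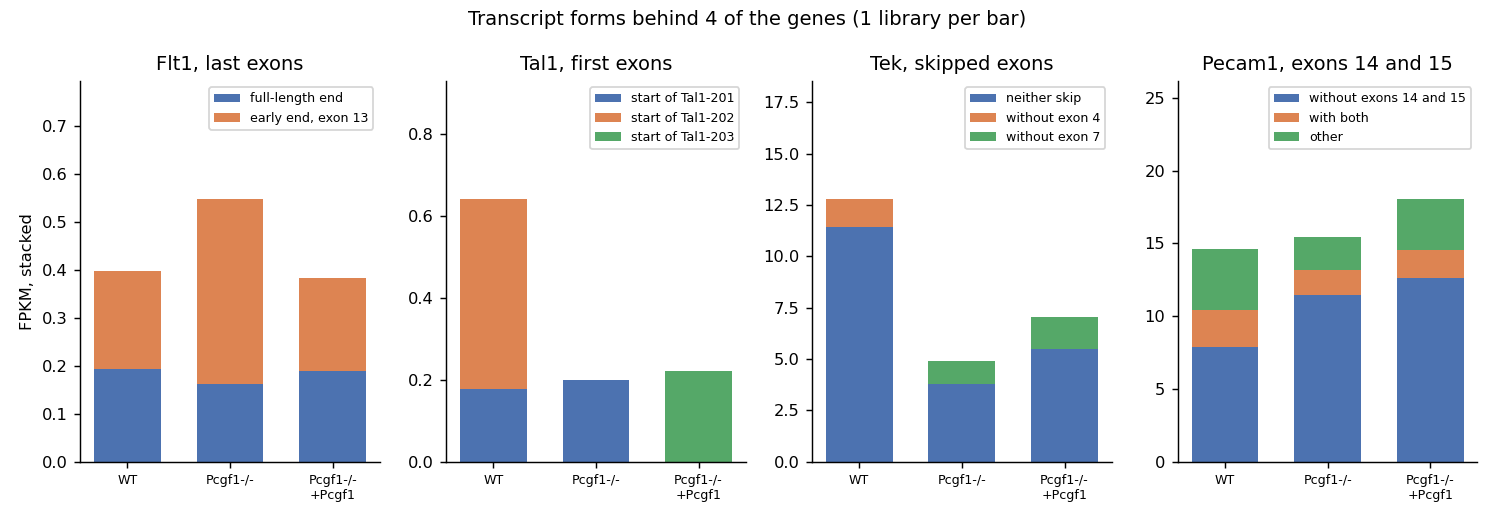
FPKM of transcript forms of Flt1, Tal1, Tek and Pecam1 (y axis, stacked from 0, a separate scale for each gene) in the 3 libraries (x axis), 1 library per bar. The early end of Flt1 is larger in Pcgf1-/-, the Tal1 value of WT is mostly the start of a short transcript, and the skipped exon of Tek differs between WT and the other libraries.

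Pecam1, an adhesion molecule of endothelium, platelets and ES cells, was the most highly expressed of the group. It had 14.5924 FPKM in WT, 15.4635 in Pcgf1-/- and 18.0452 in the rescued cells, and no ratio passed 2-fold (largest log2 ratio 0.30, rescued over WT, but 1.001 when only first exons are summed). Cdh5, the cadherin of endothelial junctions and its most specific marker in the group, was at 0.0103, 0.0197 and 0.0406 FPKM. These are about 1, 2 and 3 fragments, and no change can be read from them. Cdh5 was thus near 0 in each culture, while Pecam1, Tek and Kdr were expressed.

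The cytoplasmic tail of Pecam1 is known to be alternatively spliced, and the shares of its forms differed between the libraries while the sum of its last exons stayed within 2-fold. Transcripts without both exon 14 (57 bases) and exon 15 (23 bases) had 7.9086 FPKM in WT, 11.4538 in Pcgf1-/- and 12.6011 in the rescued cells. They made up 54.2%, 74.1% and 69.8% of the gene. Transcripts with both exons made up 17.5%, 11.3% and 11.0%. Exon 12, of 54 bases, was skipped in 28.4%, 44.5% and 31.4% of Pecam1. For the paired skip the rescued cells again lay nearer to Pcgf1-/-, and for exon 12 nearer to WT. These shares are an estimate of the assembly, which was not alike in the libraries. A form with exon 15 but without exon 14 had 1.7072 FPKM in WT and was not listed in the others. The reads behind the junctions were not analysed here. The first exons of Pecam1 summed to only 4.1341, 6.8795 and 8.3713 FPKM, so its values rest on the last exons.

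Etv2, the transcription factor that induces Flk1 and the vessel programme in the embryo, did not share the pattern of Kdr. It had 1.283 FPKM in WT, 2.4436 in Pcgf1-/- and 2.8887 in the rescued cells, about 26, 52 and 61 fragments of a transcript of 1048 bases. It was 1.84-fold higher than WT in Pcgf1-/- and 2.16-fold higher in the rescued library. Kdr and Etv2 thus lay on opposite sides of WT in Pcgf1-/-. Lmo2, an adaptor of the Tal1 complex, had 2.1762, 3.4054 and 2.32 FPKM, with the highest value in Pcgf1-/- (log2 ratio to WT 0.62) and the rescued cells near WT.

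Lmo2 has several promoters, and the FPKM listed for its first exons differed between the libraries. The first exon that ends at 103969721 of chromosome 2 had 1.8957, 1.7445 and 1.4905 FPKM. A first exon at chr2:103970129-103970365 had 1.6609 FPKM, 48.8% of Lmo2, in Pcgf1-/- and was listed at 0 in the other libraries. In WT the remainder, 12.9%, started at chr2:103970223-103970712. In the rescued cells that exon carried 20.9%, and the distal exon at chr2:103957986-103958083 carried 14.9%. These first exons lie close together or overlap, and their division among transcripts is an estimate of the assembly.

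Tal1, the basic helix-loop-helix factor that commits mesoderm to blood, was called lower in Pcgf1-/-, with 0.6413 FPKM in WT, 0.1987 in Pcgf1-/- and 0.2215 in the rescued cells. This 2.48-fold difference rested on 1 short transcript. This transcript of 683 bases, annotated with 146 residues and starting at 115057438 of chromosome 4, had 0.4643 FPKM in WT and was listed at 0 in the other libraries. Because FPKM divides by length, this value corresponds to about 6 fragments. The last exons of Tal1 had 0.177, 0.1987 and 0.2215 FPKM, and with them the ratio to WT was 0.11 on the log2 scale in place of -1.31. Counted over all its transcripts, Tal1 had about 20, 17 and 16 fragments. Its direction therefore changes with the exons that are summed, and no lower Tal1 level is read from these libraries. The rescued library started at a further first exon, chr4:115057811-115057871.

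Among the 10 genes, 3 were lower past 2-fold in Pcgf1-/- than in WT (Kdr, Tek and Tal1) and 0 were higher. Among all 25350 genes, 4.98% were lower and 2.16% higher, so most genes of the genome as of this group stayed within the limit. Without Tal1, whose call depends on the exon sum, 2 remained. Of the 6 genes that reached 1 FPKM, 2 were lower, Kdr and Tek, beside 6.67% lower and 3.01% higher among the 9739 genes of that level. The median log2 ratio of the 10 was 0.10, against -0.12 over the 13424 genes above 0 in either library. All 1263 lower and 547 higher calls fell on those 13424, because a gene at 0 in both libraries cannot be called. The shares of 4.98% and 2.16% are therefore smaller than the shares among genes with a value.

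The rescued library was higher than Pcgf1-/- past 2-fold for 1 gene, Kdr, and lower for 0, beside 6.35% higher and 2.22% lower of all genes. The median log2 ratio of the 10 was 0.17 in this comparison and 0.05 over the 13700 genes above 0. Both comparisons share the Pcgf1-/- library, so a value that is low there by chance is higher in both others. Against WT, the comparison that does not use it, the rescued library was lower for 1 gene (Tal1, with the limit given above) and higher for 1 (Etv2), beside 2.36% lower and 3.99% higher of all genes. The median log2 ratio of the 10 was 0.02 there and -0.068 over all genes above 0.

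**Figure D3:**
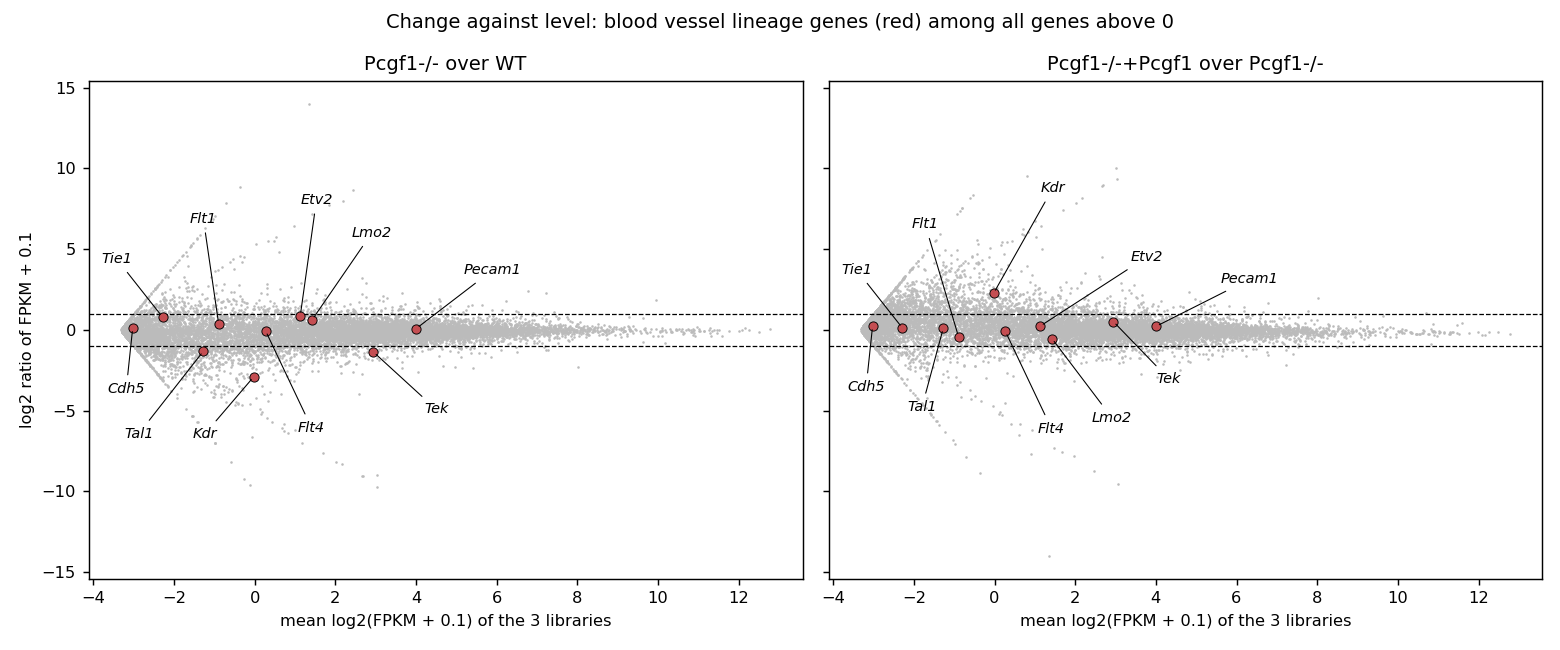
Log2 ratio of FPKM + 0.1 (y axis) against the mean log2(FPKM + 0.1) of the 3 libraries (x axis) for each gene above 0 (grey) and the 10 vessel lineage genes (red), with dashed lines at 2-fold. Kdr lies at -2.91 in Pcgf1-/- over WT and at 2.26 in the rescued cells over Pcgf1-/-, Tek and Tal1 (the latter by its first exons only) lie below the lower line in the left panel, and the others lie between the lines.

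By the distance between their 3 values on the log2(FPKM + 0.1) scale, the genes most like Kdr were Ccdc60 (1.9657, 0.2871 and 1.2158 FPKM in WT, Pcgf1-/- and Pcgf1-/-+Pcgf1, distance 0.412), 2810403D21Rik (distance 0.439) and Tarm1 (distance 0.468). Within a distance of 0.5, 4 genes were found. Around Pecam1 there were 489, of which Surf6 (14.7014, 15.4321 and 18.2793 FPKM, distance 0.0215), Pkn2 (0.0235) and Zcchc8 (0.0775) were nearest. The distance counts the level as well as the ratios, so a gene with the ratios of Kdr at another level is not near it.

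The ligands and co-receptors of these receptors were read from a list of 10 genes, 9 of them with a value of their own. The highest was Vegfb, with 21.4237 FPKM in WT, 12.9656 in Pcgf1-/- and 15.2877 in the rescued cells. Vegfa, the main ligand of Flk1, had 7.5718, 9.5314 and 8.2684 FPKM, so Vegfa and Kdr did not change together. The co-receptor Nrp2 had 6.6701, 9.5318 and 9.221 FPKM, and Pgf, a ligand of Flt1, had 1.7485, 1.9986 and 3.5164. None of these 4 passed 2-fold between Pcgf1-/- and WT. In all, 2 of the 9 were lower in Pcgf1-/- and 0 higher, beside 4.98% and 2.16% of all genes, and the median log2 ratio was -0.28, beside -0.12. The 2 were Vegfc and Figf (the older symbol of Vegfd), the ligands of Flt4, named here after their values were seen. Vegfc had 2.6653 FPKM in WT, 0.0512 in Pcgf1-/- and 2.476 in the rescued cells, log2 ratios of -4.19 and 4.09. It thus had the same order over the libraries as Kdr, and both of its ratios passed 2-fold as those of Kdr did. Figf had 1.3647, 0.4547 and 0.6094. Thus the ligands of Flt4 differed between the libraries and Flt4 itself did not. Here and in the lists below, counts are over genes above 0. The shares of all genes also include genes at 0, which cannot be called, and are smaller for that reason.

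Of 20 further transcription factors of blood and vessels, 15 had a value above 0, and 1 was lower and 3 higher in Pcgf1-/-, beside the same 4.98% and 2.16% (median log2 ratio 0.19, beside -0.12). The highest were Klf2 (517, 590 and 357 FPKM in WT, Pcgf1-/- and Pcgf1-/-+Pcgf1), which is also a factor of the ES cell state, Ldb1, the partner of Lmo2 (45.9476, 60.992 and 32.944), Ets2 (7.7466, 8.1512 and 8.9664) and Hhex (4.2005, 3.7193 and 4.5821). None of them passed 2-fold between Pcgf1-/- and WT. The lower gene was Mef2c, a factor of heart and vessel development, with 1.5658, 0.0277 and 0.4874 FPKM, and the higher ones were Gata2, Sox7 and Nfatc1. Gata2, which acts with Tal1 and Lmo2, had 0.6356, 1.7183 and 1.2952 FPKM. Nfatc1 had 0.3431, 1.059 and 0.5507 FPKM, and Sox7 0.1435, 0.4138 and 0.6484, below 1 FPKM in every library. Mef2c, Gata2, Sox7 and Nfatc1 were named after their values were seen.

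Endothelial surface and vessel wall genes went both ways. Of 23 listed, 17 had a value above 0, and 2 were lower (Vwf and Dll4) and 2 higher (Esam and Robo4) in Pcgf1-/-, beside 4.98% and 2.16% of all genes, with a median log2 ratio of 0.02, beside -0.12. Vwf had 0.682, 0.2264 and 1.5546 FPKM, Dll4 0.1964, 0.0143 and 0.0557, and Robo4 0.8673, 3.1526 and 1.7094. Vwf and Robo4 thus lay below 1 FPKM in WT, and Dll4 did so in every library. The highest were Ephb4, a receptor of venous endothelium (10.1835, 10.8288 and 7.5166 FPKM), Ecscr (5.6763, 5.4968 and 6.3359), Eng, a co-receptor for TGF-beta (5.7047, 6.1727 and 4.4738) and Plvap (5.1622, 3.1506 and 2.3755). Esam, a junction protein chosen after its value was seen, had 0.652 FPKM in WT, 4.2141 in Pcgf1-/- and 1.051 in the rescued cells, an order opposite to that of Kdr.

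Among 12 blood cell markers, 8 were above 0, with 2 lower and 1 higher in Pcgf1-/-, beside 4.98% and 2.16% of all genes, and a median log2 ratio of -0.07, beside -0.12. In the rescued cells 4 were higher and 1 lower than in Pcgf1-/-, beside 6.35% and 2.22% of all genes. The median log2 ratio was 1.03 there, beside 0.05. Only 4 of the 8 reached 1 FPKM in any library, and no replicate checks these low values. Epor, the erythropoietin receptor, had 1.5648, 4.4695 and 1.271 FPKM. Spi1, the myeloid factor PU.1, had 0.3931, 0.1305 and 1.1953, the globin Hba-a1 0.5812, 0 and 1.1071, and Itga2b, the integrin of platelets, 0.8108, 0.6626 and 1.0584. Ptprc (CD45), the marker of blood cells, was at 0.0098 FPKM in WT and 0 in the others. Of the kinase receptors related to Kdr, 3 of 5 were above 0 on their own, and 1 of them, Pdgfrb, was lower and 0 higher in Pcgf1-/-, beside 4.98% and 2.16%, with a median log2 ratio of -0.54, beside -0.12. Kit, the neighbour of Kdr on chromosome 5, had 3.0269, 2.0563 and 4.2632 FPKM, lower in Pcgf1-/- within 2-fold (log2 ratio -0.54) and higher in the rescued cells by a log2 ratio of 1.02. Pdgfrb had 0.309, 0.0913 and 0.1508 FPKM, and Flt3 had 0.0535, 0.0255 and 0.1191. Pdgfra, the other neighbour of Kit, was listed together with a microRNA gene and is given apart, at 0.0593, 0.133 and 0.1456 FPKM.

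**Figure D4:**
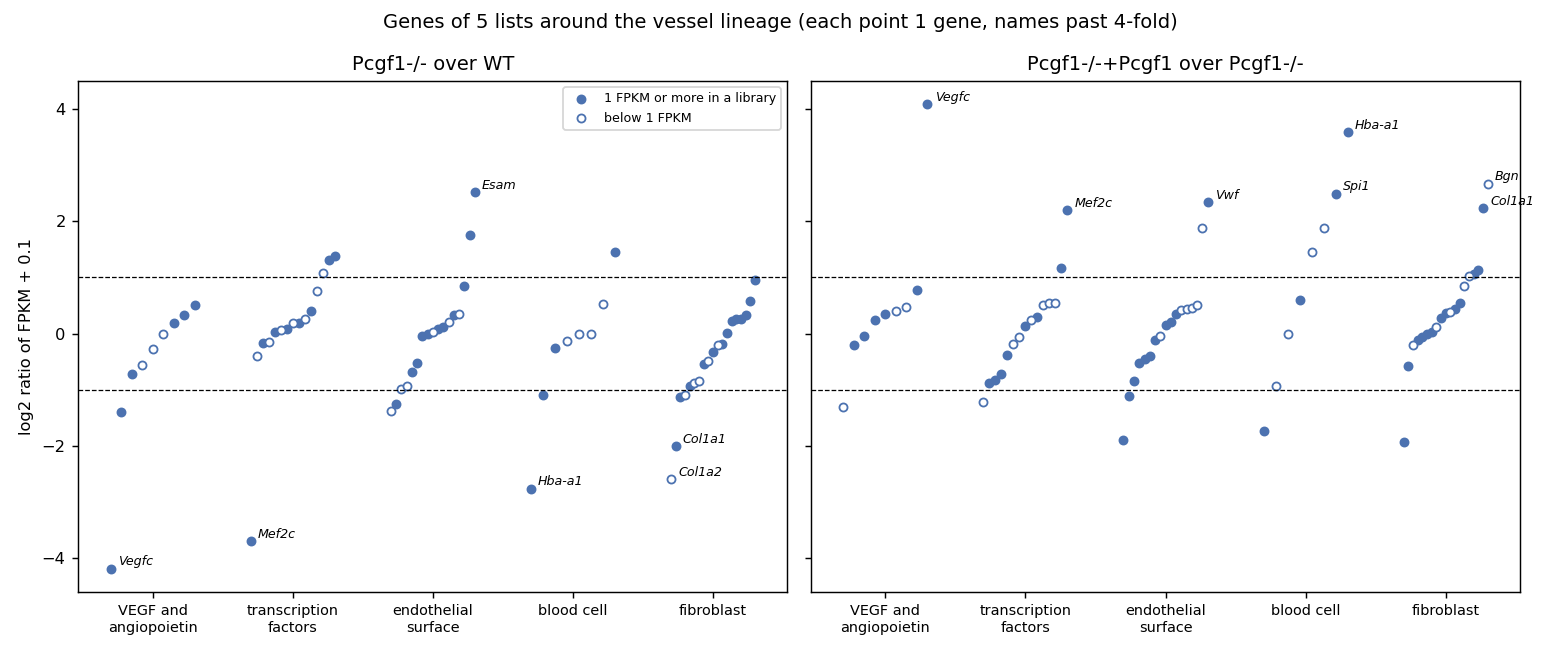
Log2 ratio of FPKM + 0.1 (y axis) of the genes above 0 in 5 lists (x axis), sorted within each list, for Pcgf1-/- over WT (left) and Pcgf1-/-+Pcgf1 over Pcgf1-/- (right). Filled points reached 1 FPKM in a library, open points did not, dashed lines mark 2-fold, and names stand at genes past 4-fold, among them Vegfc, Mef2c and Esam.

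Facts of the whole libraries bear on these values. Pcgf1 itself had 13.9523 FPKM in WT, 5.8842 in Pcgf1-/- and 7.8619 in the rescued cells, a value over the whole gene that counts transcripts without the deleted exons too. The ES cell markers Pou5f1 (670, 518 and 626 FPKM) and Nanog (68.2349, 46.3384 and 123.0474) were high in every library, as the label of the cells says. Of 8 such markers 5 had a value of their own, 2 below WT in Pcgf1-/- and 3 above. None passed 2-fold there, beside 4.98% lower and 2.16% higher of all genes. Esrrb (85, 95 and 77 FPKM), Zfp42 (35, 52 and 36) and Klf2 were highest in Pcgf1-/-. Nanog alone was called higher in the rescued cells than in Pcgf1-/- (log2 ratio 1.41), beside 6.35% of all genes. Of 24 fibroblast markers 19 were above 0 with a value of their own, 4 were lower (Col1a1, Col1a2, Thy1 and Pdgfrb) and 0 higher in Pcgf1-/-, beside 4.98% and 2.16% of all genes. In the rescued cells 5 were higher and 1 lower than in Pcgf1-/-, beside 6.35% and 2.22% of all genes. These shares again include genes at 0, which the count of 19 leaves out. Without regard to the limit, 12 of the 19 were below WT in Pcgf1-/- and 7 above. Col1a1 had 1.879, 0.3904 and 2.2099 FPKM and Thy1 14.2139, 6.3891 and 13.4622, both lowest in Pcgf1-/- as Kdr was. Others went the other way, among them Dcn (0.3516, 0.7789 and 1.1787 FPKM). Of the 4 highest of the list, Fn1 (110, 76 and 75 FPKM) and Vim (40, 32 and 29) were below WT in Pcgf1-/-. Sparc, the highest (227, 266 and 254 FPKM), and Ctgf (18, 22 and 15) were above it. The sum of the markers was 426, 416 and 404 FPKM, most of it Sparc and Fn1. It therefore says little about the markers of lower level. Postn was at 0 in all 3. The part of feeder cells in the Kdr and Tek values was not tested. Of 7 mesoderm markers, 3 were above 0 (Eomes, Tbx6 and T), and 0 passed 2-fold in any comparison. In Pcgf1-/- over WT this stands beside 4.98% lower and 2.16% higher of all genes. Their sum was 1.98, 2.55 and 1.76 FPKM, most of it Eomes (1.3931, 2.195 and 1.2248), while Tbx6 and T stayed below 1 FPKM. With so few genes, no statement on mesoderm is read from this list.

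**Figure D5:**
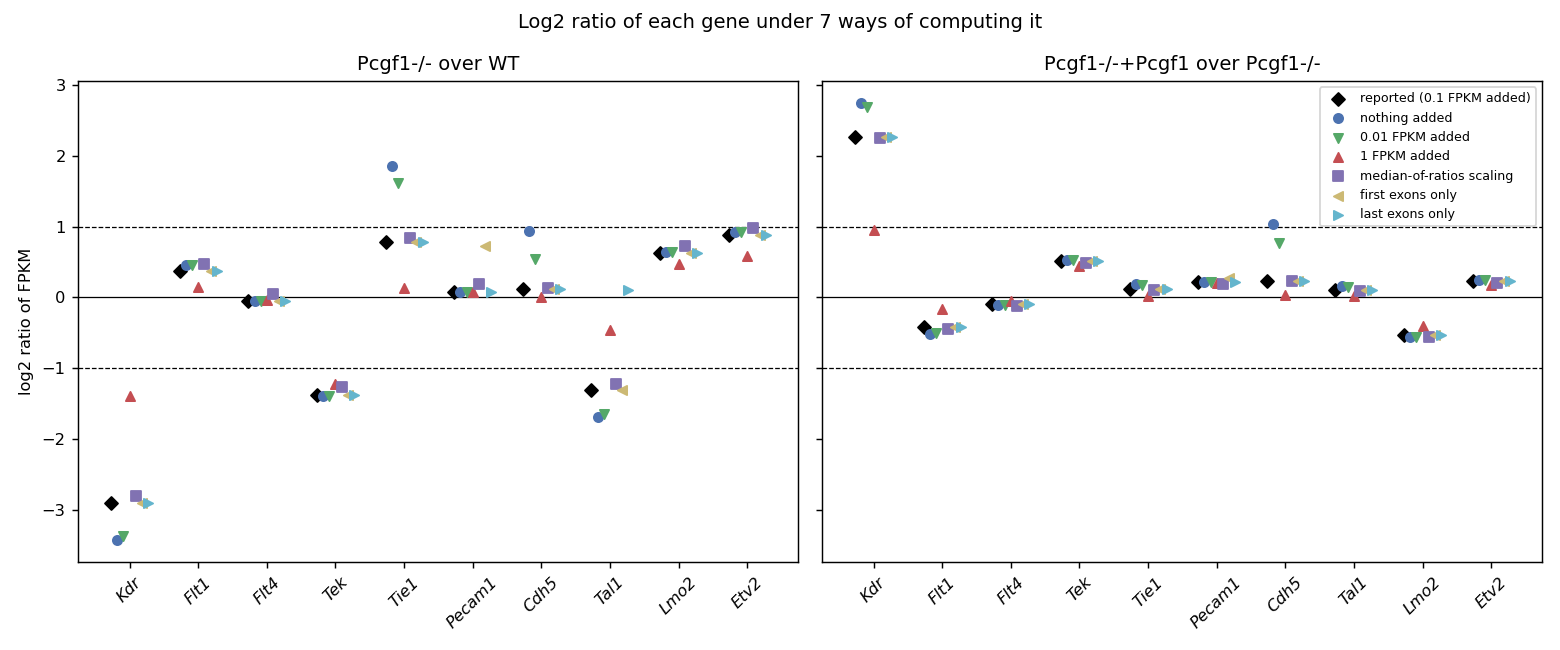
Log2 ratio of each of the 10 genes (x axis) for Pcgf1-/- over WT (left) and Pcgf1-/-+Pcgf1 over Pcgf1-/- (right), with a symbol for each way of computing it, a solid line at 0 and dashed lines at 2-fold. Kdr and Tek keep their place below -1 on the left under each setting drawn, Tal1 crosses 0 when only last exons are summed, and Kdr on the right falls just below 1 when 1 FPKM is added.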

How the data were processed

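Poly-A RNA of 3 ES cell cultures was sequenced. The labels name TopHat2 2.0.12, Cufflinks 2.2.1, HTSeq 0.6.0 and mm10. The deposited file of each sample lists transcript events (first exons, last exons, skipped exons, retained introns and alternative exon ends) with an FPKM that the authors computed, and the program behind the lists is not given in the sources used here. The library kit, per the labels, does not mark strand, so a gene and its antisense RNA cannot be told apart.

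The value of a gene was the sum of its first-exon FPKM or of its last-exon FPKM, whichever was larger. Loci that carry more than 1 gene name were dropped, and so were 1016 names present in only some of the samples. A ratio was called past 2-fold after 0.1 FPKM was added, without a test, since there was 1 sample per group. edgeR and DESeq2 need counts and were not used. The scripts were tested on simulated data.

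Depth is not given. The first step of FPKM times kilobases, over single-transcript genes longer than 2000 bases, lay at 0.0517 (WT), 0.0488 (Pcgf1-/-) and 0.0498 (rescued) in the median, and taken as 1 fragment it gave the approximate fragment numbers. These cover counting only. Gene models are from GENCODE vM21 and promoters from RefSeq. The members, lists and settings were chosen with earlier results of these data known. All 10 members were named, and from each of 5 lists the 4 genes of highest FPKM. The 3 genes nearest to Kdr and to Pecam1 were those of smallest Euclidean distance. Alternatives were other pseudocounts, median-of-ratios scaling, first or last exons alone and a filter at 1 FPKM. A ratio with no pseudocount was added after the data were seen. Python 3.11.15, numpy 2.4.6, pandas 2.3.3 and matplotlib 3.10.9 were used.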

Additional observations from a re-analysis of the deposited data

How the results depend on the processing

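Of 198 alternative values of the ratios of the 10 genes, 184 kept their side of the 2-fold limit, among them the 30 under median-of-ratios scaling, which moved the log2 ratio of Pcgf1-/- to WT by 0.11. Of these 184, 2 changed sign close to 0 under that scaling, Flt4 in Pcgf1-/- over WT from -0.05 to 0.05 and Flt1 in the rescued cells over WT from -0.04 to 0.03. Those of Tal1 reversed when only last exons were summed, to 0.11 against WT in Pcgf1-/- and 0.21 in the rescued cells. The number of the 10 genes lower in Pcgf1-/- than in WT was 3, and 2 with last exons only, with the 1 FPKM filter or with a pseudocount of 1 FPKM. Kdr was the 1 gene higher in the rescued cells than in Pcgf1-/-. With no pseudocount there were 2, the other being Cdh5, and with 1 FPKM there were 0, with Kdr at 0.96. Genes past 2-fold between the rescued cells and WT were 2, and became 3 with first exons only, where Pecam1 reached 1.001, 1 with last exons only, 1 with the filter, 4 with no pseudocount, 4 with 0.01 FPKM and 0 with 1 FPKM.

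Over all genes, the counts moved with the level below which genes can be called. Lower in Pcgf1-/- than in WT were 1263 genes, 650 with the filter, 2209 with 0.01 FPKM and 294 with 1 FPKM, and higher were 547, 293, 1058 and 160. For the rescued cells against Pcgf1-/- the same settings gave 1610, 724, 2683 and 370 higher and 563, 349, 973 and 215 lower. Against WT they gave 1011, 377, 1857 and 190 higher and 597, 264, 1145 and 139 lower. No paired analysis was possible because each genotype has 1 library and the labels give no replicate numbers.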
